A study of Mus musculus with 9 samples.

Results

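Nobox, Figla, Sohlh1, Sohlh2, Lhx8 and Pou5f1 encode transcription factors of the mouse oocyte, and their transcript levels were followed in ovaries of 3 Taf4b genotypes at 3 weeks of age. The 6 genes were chosen by symbol in the deposited annotation, and each had 1 probe set among the 28266 on the array, of which 25100 carried a gene symbol and were tested. The samples were 3 ovarian RNA samples labelled TAF4b knockout (TAF4b-null in the design text), 3 labelled TAF4b heterozygote and 3 labelled Wild type, each from a different mouse and each on 1 GeneChip Mouse Gene 1.0 ST array. The sources used here give neither strain nor Taf4b allele nor any treatment, and no cell type was separated, so each value is that of a whole ovary. The TAF4b protein is a subunit of TFIID, the complex that recognises core promoters, found mainly in gonads, and the comparison of genotypes asks how ovarian transcripts depend on it.

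In the mouse, these factors act in the oocyte around the time when primordial follicles form and start to grow. SOHLH1 and SOHLH2 are basic helix-loop-helix proteins of germ cells, and in their absence Lhx8, Nobox and Figla transcripts are low and follicles do not grow. FIGLA, another basic helix-loop-helix protein, is needed for primordial follicles to form and for zona pellucida gene expression. NOBOX is a homeodomain protein and LHX8 a LIM-homeodomain protein, both needed for follicles to pass the primordial stage. POU5F1, also called OCT4, is the POU-domain factor of pluripotent cells, and it is expressed again in growing oocytes. Basic helix-loop-helix factors bind the E-box, CANNTG, and NOBOX binds TAATTG or TAATTA.

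The promoters of 4 of these genes are shown because they cover the largest differences from wild type (Nobox and Pou5f1) and the genes that followed the oocyte markers most and least closely (Lhx8 and Sohlh1). Each runs from 250 bases before to 50 bases after the start of the gene in RefSeq, build GRCm38.p6, 5′ to 3′ on the gene's strand, with each E-box in capitals. The Nobox sequence is chr6:43309505-43309804, minus strand. The Pou5f1 sequence is chr17:35505782-35506081, plus strand, the first of 2 RefSeq starts of that gene. The Lhx8 sequence is chr3:154330511-154330810, minus strand, and the Sohlh1 sequence is chr2:25847199-25847498, minus strand.
Nobox: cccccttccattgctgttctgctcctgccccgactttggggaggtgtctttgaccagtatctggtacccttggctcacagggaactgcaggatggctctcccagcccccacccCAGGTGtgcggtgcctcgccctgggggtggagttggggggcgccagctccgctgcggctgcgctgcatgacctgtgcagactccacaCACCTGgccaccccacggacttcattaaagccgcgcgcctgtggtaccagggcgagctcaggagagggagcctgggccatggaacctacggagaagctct
Pou5f1: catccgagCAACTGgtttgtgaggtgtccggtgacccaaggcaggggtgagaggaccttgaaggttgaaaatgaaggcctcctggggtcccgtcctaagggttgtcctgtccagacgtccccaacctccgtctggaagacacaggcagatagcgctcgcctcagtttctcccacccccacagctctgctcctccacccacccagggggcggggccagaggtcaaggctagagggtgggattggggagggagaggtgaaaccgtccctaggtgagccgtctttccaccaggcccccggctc
Lhx8: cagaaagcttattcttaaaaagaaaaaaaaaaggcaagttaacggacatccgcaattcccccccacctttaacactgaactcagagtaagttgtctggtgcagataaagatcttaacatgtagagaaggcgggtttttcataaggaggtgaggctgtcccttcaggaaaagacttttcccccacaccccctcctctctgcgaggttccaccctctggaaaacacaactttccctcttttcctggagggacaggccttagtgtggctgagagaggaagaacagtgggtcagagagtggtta
Sohlh1: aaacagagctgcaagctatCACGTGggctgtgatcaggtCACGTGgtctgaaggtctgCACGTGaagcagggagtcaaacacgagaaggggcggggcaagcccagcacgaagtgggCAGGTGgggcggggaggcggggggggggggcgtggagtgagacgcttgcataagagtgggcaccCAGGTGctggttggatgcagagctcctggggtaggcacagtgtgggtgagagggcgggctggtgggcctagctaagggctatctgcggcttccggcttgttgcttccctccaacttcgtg

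The Sohlh1 promoter held 5 E-boxes, a number reached or passed by 2.1% of the 32851 promoters in the RefSeq table. The first 3 read CACGTG and began 231, 211 and 192 bases before the start, and the other 2 read CAGGTG. The Nobox promoter held 2, CAGGTG and CACCTG, which are the same letters on opposite strands, 137 and 50 bases before the start. Lhx8 held 0, as did 27.7% of all promoters, and Pou5f1 held 1, CAACTG, 242 bases before its first start. The window of the second Pou5f1 start held 2, CAGCTG and CATGTG, 143 and 51 bases before that start. Of the promoters not printed, Figla held 4 E-boxes and Sohlh2 held 1. The elements TAATTG and TAATTA, the octamer ATGCAAAT bound by POU proteins and the TATA element TATAAA were searched on both strands in the same windows. None of these 4 was found at any of the 6 genes (0 matches), against 8%, 5.29%, 1.74% and 13.6% of all promoters. With shares this low and 6 genes, little can be read from the absence. The 4 elements consist mostly of A and T. GC content was 65% for Nobox, 67% for Figla, 63.3% for Sohlh1 and 64.7% for Sohlh2. It was 47% for Lhx8 and 62.7% at the first Pou5f1 start, against a median of 52.7% over all promoters. CACGTG and CAGGTG are forms of CANNTG, so their matches overlap with it. A match is a string of letters in this window and was not tested for binding.

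Across the 9 arrays, median intensities lay between 123.70 and 126.89 and correlations across probe sets between 0.989 and 0.998. The knockout label was checked with Taf4b, measured by 1 probe set, and the sources used here do not place that probe set relative to the deletion; one outside the deleted part would check nothing. Taf4b read 332.0, 625.6 and 402.8 in the arrays labelled knockout 1, 2 and 3, against 493.6, 634.9 and 723.4 in wild type. Knockout 2 thus read Taf4b within the wild-type range, while knockouts 1 and 3 lay below that range but kept signal. The knockout difference was -0.48 (log2, adjusted p = 0.514, limma). Without knockout 2, the array singled out by this same reading, it was -0.74 (adjusted p = 0.151, limma). Whether knockout 2 goes against its label cannot be told from this probe set. The differences of the 6 genes from wild type, their medians and the gene lists are therefore also given without knockout 2. Knockout 2 also stood apart in some cell type markers. The theca list was at 0.81 above its 9-array mean (log2) in knockout 2, against -0.02 and -0.10 in knockouts 1 and 3. Heterozygote 3 was at 0.46. The oocyte list was at -0.37 in knockout 2, against 0.15 and 0.24 in knockouts 1 and 3. In other lists the 3 knockouts lay above each wild-type array. Surface epithelium markers stood at 0.44, 0.27 and 0.33 in knockouts 1, 2 and 3, against -0.03, -0.23 and -0.33 in wild type. Adipocyte markers stood at 0.42, 0.49 and 0.27, against 0.17, 0.03 and 0.01. Oviduct markers stood at 0.28, 0.23 and 0.39, against -0.32, 0.01 and -0.26. Macrophage markers stood at 0.40, 0.07 and 0.61, against -0.06, -0.21 and -0.13.

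None of the 6 genes passed the test between any genotypes (limma, Benjamini-Hochberg adjusted p under 0.05 over 25100 probe sets), and their means were lower than wild type in both mutant groups. In knockouts against wild type, 6 of 6 means were lower, with a median log2 difference of -0.28, while 51.7% of all tested probe sets were lower and their median was -0.004. By adjusted p, 0 of 6 were called against 0.0757% of all probe sets, and at an unadjusted p under 0.05 1 of 6 was lower, Pou5f1, against 5.77% (and 0 of 6 higher, against 4.89%). In none of the 6 (0) did knockout and wild-type arrays separate, which happened with knockouts lower at 7.77% of probe sets. Between heterozygotes and wild type 6 of 6 were lower, with a median of -0.26, against 48.7% and a median of 0.003 over all probe sets. There 0 of 6 were called against 0%, 1 of 6 was lower at an unadjusted p under 0.05, Nobox, against 3.04% (0 of 6 higher, against 2.71%), and 2 of 6 separated, Nobox and Pou5f1, against 6.43%. Between knockouts and heterozygotes 4 of 6 were lower, with a median of -0.06 (-0.01 over all probe sets, 54.6% lower). By adjusted p 0 of 6 were called against 0.0239%, and 0 of 6 had an unadjusted p under 0.05 against 14.3% in either direction. In 0 of 6 did these groups separate, against 16.2% in either direction. Without knockout 2 this median turned to 0.10, with 5 of 6 higher in knockouts, and without both knockout 2 and heterozygote 1 it was 0.12, with 6 of 6 higher. Without knockout 2 the median difference between knockouts and wild type was -0.17, with 4 of 6 lower. Without wild type 1 it was -0.13 in knockouts and -0.14 in heterozygotes, and without wild type 3 it was -0.44 in knockouts and -0.42 in heterozygotes. The first 2 comparisons share the wild-type arrays, and the 6 genes were read in the same 9 ovaries, so these counts are not independent of each other. The plot of differences with confidence intervals shows that intervals for most genes included 0.

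**Figure D1:**
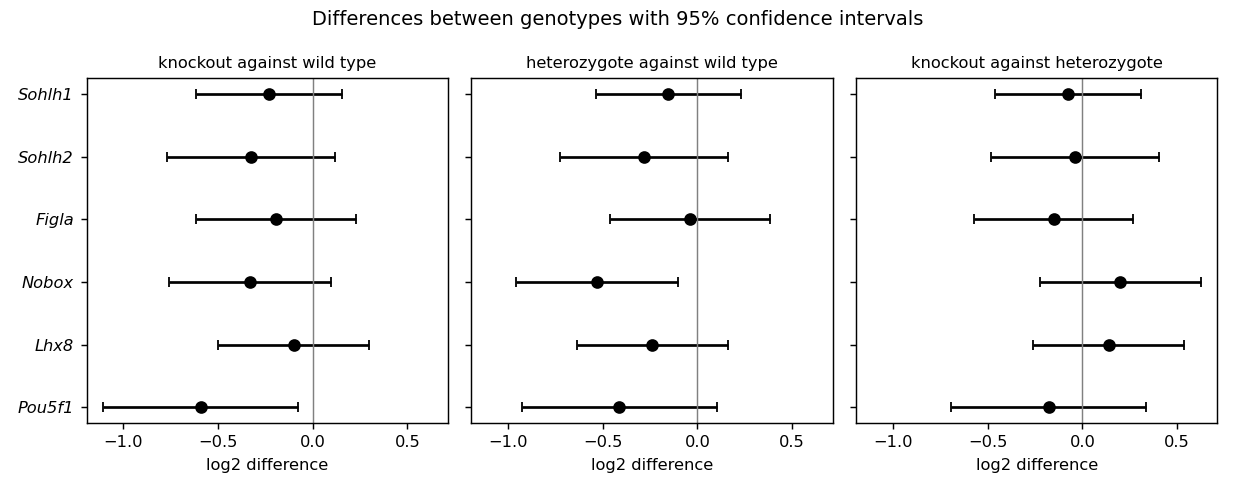
Log2 differences between genotypes (x axis) of the 6 genes (y axis), with 95% confidence intervals from limma over all 9 arrays. The interval lies below 0 for Pou5f1 in knockout against wild type (-1.11 to -0.08) and for Nobox in heterozygote against wild type (-0.96 to -0.11), before any adjustment for the 25100 probe sets tested.

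Sohlh1, one of the pair of upstream helix-loop-helix genes, read 115.5, 106.0 and 111.6 in the arrays labelled knockout, 138.7, 116.6 and 99.1 in heterozygotes, and 166.7, 126.2 and 104.9 in wild type. Wild type 1 was the highest array, and wild type 3 lay below each of the 3 knockouts, so the groups overlapped. The mean was 111 ± 4.78 in knockouts, 118 ± 19.9 in heterozygotes and 133 ± 31.4 in wild type (SD, n = 3 each). The difference from wild type was -0.23 in knockouts (log2, SE 0.17, adjusted p = 0.7, limma) and -0.15 in heterozygotes (SE 0.17, adjusted p = 0.863, limma). Without knockout 2 the knockout difference was -0.20, and without wild type 1 it was -0.052. The spread of Sohlh1 among knockouts was small, 4.3% of the mean, against 16.8% in heterozygotes and 23.7% in wild type, and this difference in spread was not tested.

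Sohlh2, its partner, read 104.5, 77.9 and 104.0 in the arrays labelled knockout, 89.4, 116.6 and 88.3 in heterozygotes, and 148.1, 123.5 and 90.8 in wild type. Knockout 2 was the lowest array and wild type 1 the highest, with a ratio of 1.9 between highest and lowest. Wild type 3 again lay below knockouts 1 and 3. The difference from wild type was -0.32 in knockouts (log2, SE 0.20, 95% confidence interval -0.77 to 0.12, adjusted p = 0.617, limma). Without knockout 2 it was -0.18, and without wild type 1 it was -0.16. In heterozygotes the difference was -0.28 (SE 0.20, adjusted p = 0.816, limma).

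Figla, the regulator of primordial follicle formation and zona genes, read 82.6, 58.0 and 96.4 in the arrays labelled knockout, 96.9, 79.2 and 82.6 in heterozygotes, and 101.1, 91.0 and 74.9 in wild type. The 3 genotypes overlapped throughout. The difference from wild type was -0.19 in knockouts (log2, SE 0.19, adjusted p = 0.785, limma) and -0.04 in heterozygotes (95% confidence interval -0.46 to 0.38, adjusted p = 0.968, limma). Without knockout 2 the knockout value was 0.02, on the other side of 0.

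Nobox, the homeobox gene, read 687.7, 538.6 and 869.0 in the arrays labelled knockout, 602.8, 645.7 and 545.5 in heterozygotes, and 1020.5, 910.9 and 689.2 in wild type. The 3 heterozygotes lay below the 3 wild-type arrays, whereas knockout 3 lay above wild type 3. The mean was 698 ± 166 in knockouts, 598 ± 50.3 in heterozygotes and 874 ± 169 in wild type (SD, n = 3 each). Heterozygotes stood at 0.692-fold of wild type, a difference of -0.53 (log2, SE 0.19, p = 0.0202, adjusted p = 0.815, limma; exact permutation p = 0.1, two-sided). An exact p of 0.1 is the smallest that 3 against 3 arrays allow, so this test cannot reach 0.05. Knockouts differed from wild type by -0.33 (SE 0.19, adjusted p = 0.583, limma; exact permutation p = 0.2), and by -0.16 without knockout 2. Nobox was higher in knockouts than in heterozygotes by 0.20 (SE 0.19, adjusted p = 0.636, limma), a difference within the spread between arrays, and by 0.37 without knockout 2 (adjusted p = 0.3, limma).

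Lhx8, the LIM-homeobox gene, read 354.4, 244.4 and 381.5 in the arrays labelled knockout, 312.5, 299.0 and 264.5 in heterozygotes, and 383.4, 371.9 and 284.6 in wild type. Knockouts 1 and 3 were close to wild types 1 and 2, and knockout 2 was the lowest array of the 9. The knockout difference from wild type was -0.10 (log2, SE 0.17, adjusted p = 0.906, limma), and it was 0.10 without knockout 2. Heterozygotes differed from wild type by -0.24 (SE 0.17, 95% confidence interval -0.64 to 0.16, adjusted p = 0.819, limma).

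Pou5f1, the POU-domain gene, varied most among the 6, with 252.9, 142.4 and 258.3 in the arrays labelled knockout, 238.2, 249.8 and 226.4 in heterozygotes, and 377.2, 330.1 and 255.0 in wild type. Its highest array was 2.65 times its lowest. The heterozygotes lay below the wild-type arrays without overlap, although wild type 3 was only slightly above the highest of them, and knockout 3 lay just above wild type 3. The mean was 218 ± 65.4 in knockouts, 238 ± 11.7 in heterozygotes and 321 ± 61.6 in wild type (SD, n = 3 each). Knockouts stood at 0.664-fold of wild type, a difference of -0.59 (log2, SE 0.23, p = 0.0291, adjusted p = 0.398, limma; exact permutation p = 0.2). Without knockout 2, which read 44.4% of the wild-type mean, the difference was -0.31 (adjusted p = 0.431, limma). Heterozygotes differed from wild type by -0.41 (SE 0.23, adjusted p = 0.815, limma; exact permutation p = 0.1).

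**Figure D2:**
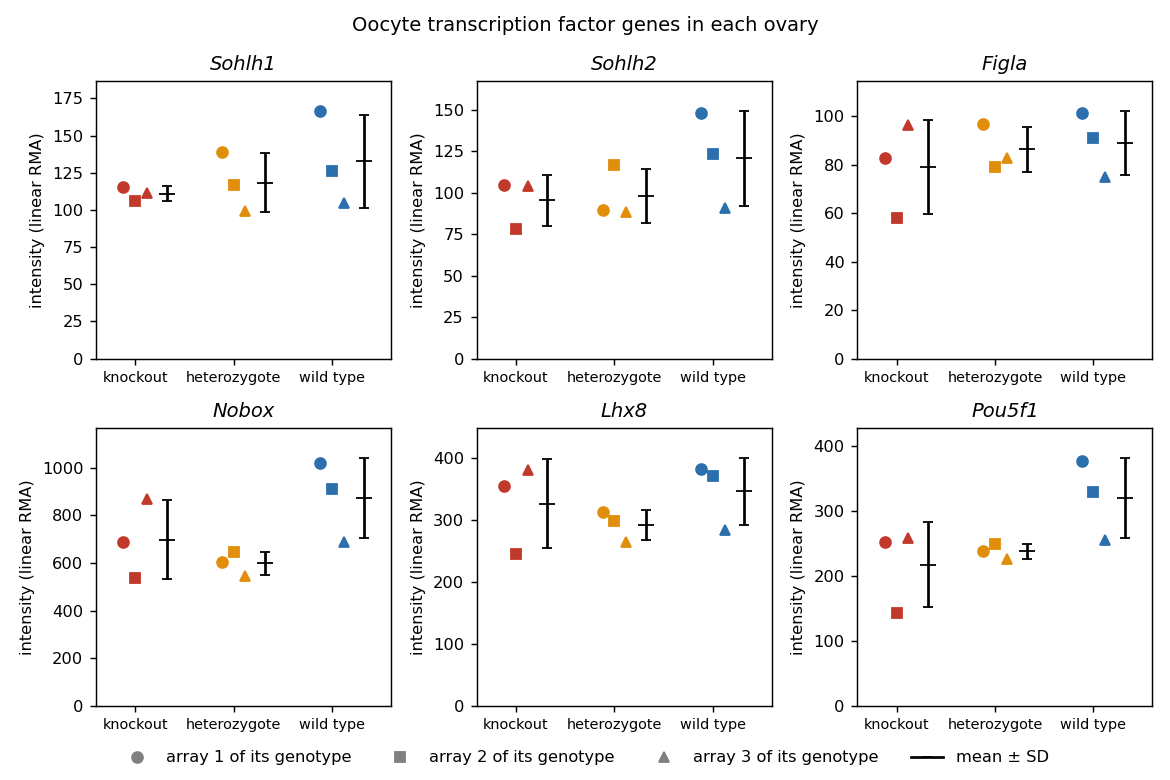
Intensity (linear RMA signal, y axis) of each gene in the 3 arrays labelled knockout, 3 heterozygotes and 3 wild types; points are single mice, and bars give the mean ± SD. Wild type 1 is the highest array for 6 of 6 genes, and knockout 2 is the lowest for 5 of 6.

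The same ovaries were high or low for gene after gene. Wild type 1 held the highest value of 6 of 6 genes, and knockout 2 the lowest of 5 of 6, the exception being Sohlh1, lowest in heterozygote 3. The deposited tables give the ratio the other way round, and in the authors' deposited table for wild type over knockout the fold was 1.47 for Pou5f1 (p = 0.118 by the authors' test). In the authors' deposited table for wild type over heterozygote it was 1.46 for Nobox (p = 0.0535 by the authors' test). With 6 genes passing the filter on dim probe sets (6 of 6), and 3 of 6 above the median probe set, leaving out the dimmest 25% of probe sets removed none of them. In whole ovaries, fewer oocytes and less of a transcript per oocyte cannot be told apart.

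A list of 20 genes of growing oocytes, without any of the 6 genes, was read beside them as a measure of oocyte RNA in each ovary. Its summed intensity ranged from 29205 to 45722 in the arrays labelled knockout, from 28683 to 33522 in heterozygotes and from 34561 to 44894 in wild type. Relative to its 9-array mean the list stood at 0.15, -0.37 and 0.24 in knockouts (mean log2 deviation), -0.10, -0.11 and -0.28 in heterozygotes, and 0.30, 0.20 and -0.02 in wild type. Thus knockout 2 and heterozygote 3 had the least oocyte signal, and the heterozygotes lay below the wild-type arrays. The list's mean deviation was then subtracted from each gene, array by array. Many of the 20 genes are also on the list, read below, of genes that depend on these factors or are bound by them. A change in the factors could move the 20 genes too, so subtraction cannot tell the amount of oocytes from the transcript level per oocyte.

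Lhx8 followed this list most closely. Its standard deviation over the 9 arrays was 0.241 (log2) as measured and 0.059 after subtraction, with 6.05% of the variance left. What remained of Lhx8 lay between -0.14 and 0.08 in the 9 arrays, with 0.01, -0.01 and 0.02 in knockouts, 0.08, 0.02 and 0.01 in heterozygotes, and -0.03, 0.03 and -0.14 in wild type. Nobox kept 16.8% of its variance, Pou5f1 34.2%, Sohlh2 36.9%, Figla 51% and Sohlh1 86.1%. Sohlh2, Figla and Sohlh1 were also the genes with signals below the median probe set. The part of their dim signal in the variance left was not tested. Within genotypes the standard deviation also became smaller for 6 of 6 genes, for example 0.27 to 0.107 for Nobox and 0.329 to 0.121 for Pou5f1, but only 0.242 to 0.215 for Sohlh1.

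**Figure D3:**
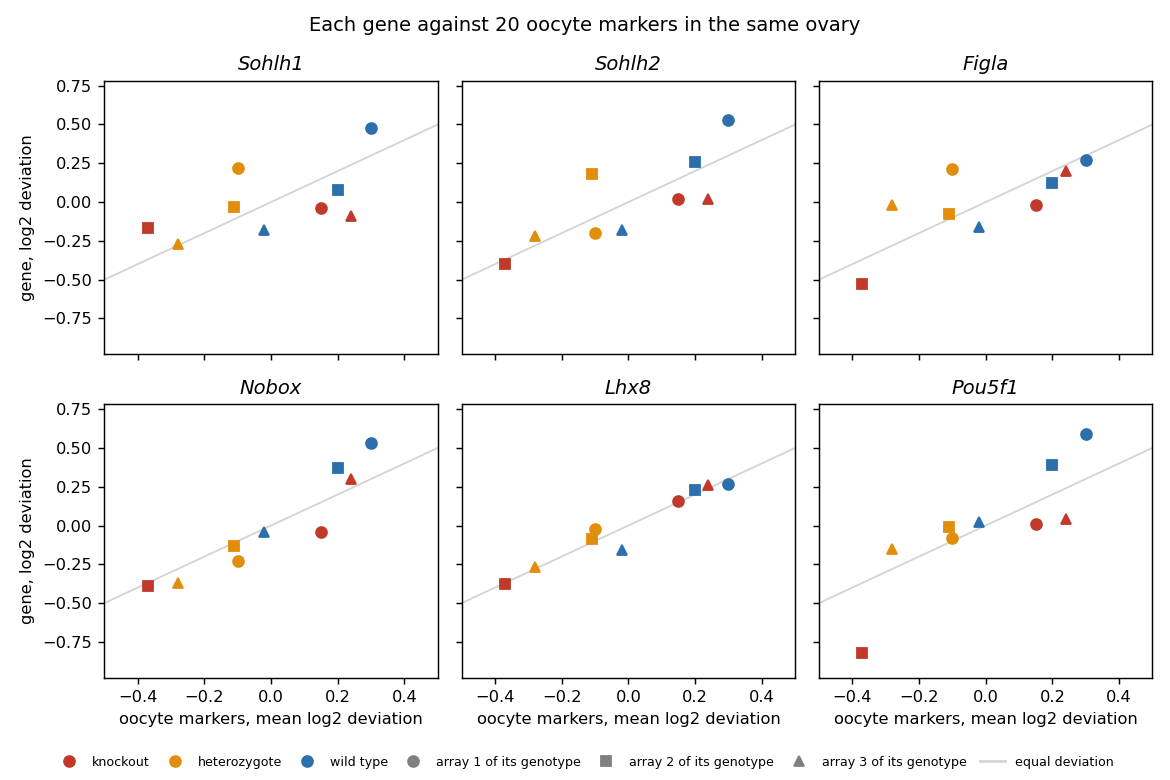
Log2 deviation of each gene from its 9-array mean (y axis) against the mean log2 deviation of 20 oocyte markers (x axis); each point is 1 ovary, colours are genotypes, and the grey line marks equal deviation. Lhx8 lies along the line, Sohlh1 is scattered about it, and the 3 knockout points of Pou5f1 lie below it.

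After subtraction the median difference from wild type was -0.13 in knockouts and 0.06 in heterozygotes, against -0.28 and -0.26 as measured. Subtraction moves every probe set by the same amount, so that the median over all tested probe sets becomes 0.15 for knockouts and 0.33 for heterozygotes against wild type, and -0.18 for knockouts against heterozygotes. Pou5f1 remained at -0.14, -0.45 and -0.20 in the 3 knockouts, against 0.29, 0.20 and 0.04 in wild type, and the groups no longer overlapped. The difference was -0.44 (adjusted p = 0.892, limma), and 0.952% of all probe sets lay lower without overlap on this scale, against 7.77% as measured. In heterozygotes what remained of Pou5f1 was 0.03, 0.10 and 0.13, above each of the 3 knockouts, where 3.08% of all probe sets had knockouts lower without overlap (difference -0.35, adjusted p = 0.753, limma). Figla also had the 3 knockouts, at -0.17, -0.16 and -0.04, below the 3 heterozygotes on this scale (difference -0.32, adjusted p = 0.753, limma).

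Nobox in heterozygotes remained at -0.12, -0.02 and -0.09, against 0.23, 0.17 and -0.01 in wild type, with no overlap, as was seen with heterozygotes lower at 0.104% of all probe sets (difference -0.21, adjusted p = 0.391, limma). The subtraction shifts all probe sets upward in heterozygotes against wild type (median 0.33), which makes that share small, and as measured it was 6.43%. For Nobox wild type 3 was only just above heterozygote 2, so the separation is small. Figla turned the other way, with 0.32, 0.03 and 0.26 in heterozygotes against -0.03, -0.07 and -0.14 in wild type. Its difference of 0.28 (adjusted p = 0.29, limma) is close to the shift of 0.33 common to all probe sets, and 54.7% of them were higher without overlap. Pou5f1, which separated heterozygotes from wild type as measured, overlapped after subtraction, with a difference of -0.09. Sohlh1, Sohlh2 and Lhx8 also overlapped, with differences of 0.17, 0.04 and 0.08. Without knockout 2 the median of the 6 genes after subtraction was -0.21 between knockouts and wild type (-0.04 over all probe sets) and -0.26 between knockouts and heterozygotes (-0.37 over all probe sets). Pou5f1 was then at -0.35 against wild type (adjusted p = 0.648, limma) and Sohlh1 at -0.23, neither of them called. Both separated from wild type, and Figla, Sohlh1, Sohlh2 and Pou5f1 lay below the heterozygotes without overlap. With fewer knockout arrays separation is easier to reach. Its share over all probe sets was not counted in either comparison, so nothing is read from it. Against heterozygotes Sohlh1 then stood at -0.40 and was called (adjusted p = 0.0359, limma), as were 53.1% of all probe sets on that scale. The map of deviations gives each value before and after subtraction.

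**Figure D4:**
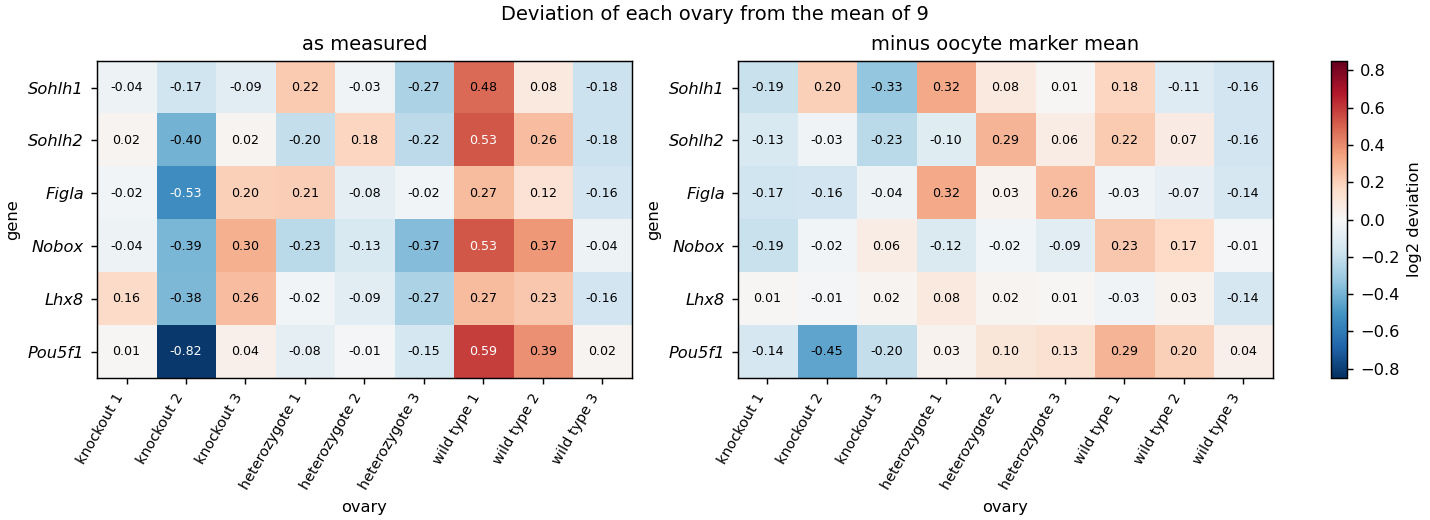
Log2 deviation of each ovary (x axis) from the 9-array mean of each gene (y axis), as measured on the left and after subtracting the mean of 20 oocyte markers on the right; red is above and blue below the mean. The knockout 2 column is low for most genes on the left, and on the right its lowest value is that of Pou5f1 (-0.45).

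Genes that depend on these factors or are bound by them in mouse oocytes were next examined. Of 18 such genes, 13 were lower in knockouts than in wild type (median -0.14) and 18 in heterozygotes (median -0.32). Over all probe sets 51.7% were lower in knockouts and 48.7% in heterozygotes. By adjusted p 0 were called in either comparison (limma). At an unadjusted p under 0.05, 1 in knockouts and 5 in heterozygotes were lower, against 5.77% and 3.04% of all probe sets. Without knockout 2, 10 of 18 were lower in knockouts, with a median of 0.00 and 0 called (limma). The list's mean log2 deviation was 0.19, -0.35 and 0.24 in the arrays labelled knockout, against 0.31, 0.17 and -0.04 in wild type. Among the knockouts only knockout 2 lay below each wild-type array, whereas each heterozygote did, at -0.11, -0.12 and -0.29. Of the 18, 13 also belong to the list of 20 oocyte markers, so the lists are not independent. H1f8, the oocyte linker histone gene (H1foo in the deposited annotation), differed by -0.45 in knockouts (adjusted p = 0.435, limma) and by -0.45 in heterozygotes (adjusted p = 0.815, limma). Without knockout 2 its knockout difference was -0.20. Bmp15, an oocyte growth factor gene, stood at -0.22 and -0.32, Mos, a kinase gene of meiotic arrest, at -0.13 and -0.38, and the DNA methyltransferase gene Dnmt1 at -0.13 and -0.31 in knockouts and heterozygotes. Without knockout 2 the knockout values of these 3 were -0.09, 0.02 and -0.01. The zona pellucida genes Zp1, Zp2 and Zp3, chosen here as known targets of FIGLA and after their values were seen, stood at 0.01, 0.12 and 0.09 in knockouts and at -0.40, -0.32 and -0.40 in heterozygotes. Without knockout 2 they stood at 0.27, 0.30 and 0.31 in knockouts.

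Partner proteins of the 6 factors formed another list. Of 12 partner genes (E proteins and ID proteins that pair with helix-loop-helix factors, LIM adaptors, and Sox2 and Nanog), 3 were lower and 9 higher in knockouts than in wild type (median 0.03), and 7 were lower in heterozygotes (median -0.03). None was called (0). At an unadjusted p under 0.05, 3 were higher in knockouts and 0 in heterozygotes, against 4.89% and 2.71% of all probe sets. These 3 were Id2, an inhibitor of helix-loop-helix factors, at 0.41 (adjusted p = 0.376, limma), and the E protein genes Tcf4 at 0.19 (adjusted p = 0.44, limma) and Tcf12 at 0.14 (adjusted p = 0.403, limma). Nanog gave a dim signal of 43.2 ± 2.48 in knockouts and 48.2 ± 4.26 in wild type (SD, n = 3 each) and differed by -0.15. Without knockout 2, 4 of 12 were lower and 8 higher (median 0.06), again with 0 called (limma), and Id2 stood at 0.50, Tcf4 at 0.23 and Tcf12 at 0.15. In the same knockout arrays 9 of 9 surface epithelium and 9 of 9 macrophage markers were higher than in wild type, and the part of this in the values of Id2, Tcf4 and Tcf12 was not tested.

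Other regulators of germ cells, 17 of 18 of which were measured, were lower in knockouts at 12 genes (median -0.12) and lower in heterozygotes at 16 (median -0.14), with 0 called and 2 lower at an unadjusted p under 0.05 in each. Over all probe sets 5.77% were lower at that level in knockouts and 3.04% in heterozygotes. Sall4, a zinc finger gene of germ cells, stood at -0.43 in knockouts (adjusted p = 0.357, limma) and -0.35 in heterozygotes, and the orphan receptor gene Nr6a1 at -0.27 and -0.19. Ddx4, the germ cell RNA helicase gene, stood at 0.24 in knockouts and -0.49 in heterozygotes, and Sub1, a transcription coactivator gene, at -0.12 and -0.03. Without knockout 2, 9 of the 17 were lower in knockouts (median -0.03), with Sall4 at -0.26, Nr6a1 at -0.15, Ddx4 at 0.45 and Sub1 at -0.08. Among 20 LIM-homeobox and POU relatives, 12 were lower in knockouts (median -0.02) and 7 in heterozygotes (median 0.03). Of these relatives 0 were called, with 3 higher in knockouts and 1 lower in heterozygotes at an unadjusted p under 0.05. The shares over all probe sets were 4.89% and 3.04%. The 3 were Lhx9, a gonadal somatic gene, at 0.31 (adjusted p = 0.25, limma), Lhx2 at 0.18 and Lhx1 at 0.19, and the one in heterozygotes was Pou4f1 at -0.28 (adjusted p = 0.815, limma). Without knockout 2, 13 of the 20 were lower in knockouts (median -0.02), and Lhx9 stood at 0.40 (adjusted p = 0.0701, limma).

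Markers of small oocytes and of other cells were read in the same arrays. The 20 oocyte markers themselves were lower at 14 in knockouts (median -0.17) and at 20 in heterozygotes (median -0.31). Small-oocyte markers, 10 genes, were lower at 7 in knockouts (median -0.17) and at 10 in heterozygotes (median -0.34), with Mael, of the piRNA pathway, at -0.70 and -0.65, and the meiotic genes Sycp3 at -0.91 and -0.66 and Smc1b at -0.78 and -0.48. Mael, Sycp3 and Smc1b were dim, with wild-type means of 120.5, 71.2 and 89.5 against 157 for the median probe set. Sycp3 read 97.2, 74.7 and 41.6 in wild type and 47.6, 41.6 and 39.0 in heterozygotes, so wild type 3 lay among the heterozygotes. Ddx4, also on this list, stood above wild type in knockouts, at 0.24, as did Foxo3 at 0.09 and Stat3 at 0.08. Without knockout 2, 5 of the 10 were lower in knockouts (median -0.02), with Sycp3 at -0.86, Smc1b at -0.65 and Mael at -0.51. Of 12 granulosa markers 9 were lower in knockouts (median -0.14), with Fshr at -0.79, Inhbb at -0.84 and Fst at -0.72, and summed intensities of 27155 to 35928 in knockouts against 34043 to 35837 in wild type. The 3 higher were Kitl at 0.29, Amhr2 at 0.16 and Foxl2 at 0.09, while Amh stood at -0.14 and Inha at -0.12. Theca markers were higher at 7 of 8 in knockouts (median 0.44), with summed intensities of 6303 to 12524 in knockouts against 5574 to 6166 in wild type, and Lhcgr stood at 0.53. Surface epithelium markers were higher at 9 of 9 in knockouts (median 0.51), macrophage markers at 9 of 9 (median 0.45), adipocyte markers at 7 of 8 (median 0.31) and oviduct markers at 6 of 6 (median 0.22). At an unadjusted p under 0.05, 9 of the 9 surface epithelium markers and 7 of the 9 macrophage markers were higher in knockouts (limma). Of all probe sets 4.89% were. Summed intensities of surface epithelium markers were 4162 to 4449 in knockouts against 2623 to 3258 in wild type, and those of macrophage markers 1700 to 2538 in knockouts against 1363 to 1524 in wild type. Adipocyte markers summed to 3134 to 3635 in knockouts, 1183 to 2081 in heterozygotes and 2367 to 2664 in wild type, and oviduct markers to 852 to 1067 in knockouts, 503 to 730 in heterozygotes and 538 to 668 in wild type. In heterozygotes adipocyte markers were lower at 7 of 8 (median -0.56), granulosa markers at 8 of 12 (median -0.07) and macrophage markers at 7 of 9 (median -0.08). Heterozygotes were higher at 6 of 8 theca markers (median 0.11), 7 of 9 surface epithelium markers (median 0.07) and 4 of 6 oviduct markers (median 0.07). None of these markers was called in either comparison with wild type (0 by limma). Between knockouts and heterozygotes the median was 0.15 for the targets, 0.09 for partners, 0.01 for other regulators, -0.02 for relatives, 0.16 for oocyte markers and 0.13 for small-oocyte markers. For somatic lists it was -0.12 for granulosa, 0.21 for theca, 0.46 for surface epithelium, 0.54 for macrophage, 0.77 for adipocyte and 0.22 for oviduct markers, again with 0 called (limma). Without knockout 2 the median difference from wild type was 0.01 for the 20 oocyte markers (10 lower), -0.27 for granulosa, 0.21 for theca, 0.54 for surface epithelium, 0.58 for macrophage, 0.29 for adipocyte and 0.28 for oviduct markers, with 0 called (limma). Against heterozygotes it was then 0.33 for the targets, 0.06 for partners, 0.09 for other regulators, -0.04 for relatives, 0.36 for oocyte markers and 0.24 for small-oocyte markers. For the somatic lists it was -0.22 for granulosa, 0.05 for theca, 0.48 for surface epithelium, 0.70 for macrophage, 0.66 for adipocyte and 0.29 for oviduct markers. In that comparison, added after seeing the data, 261 of all 25100 probe sets were called. Among them were 4 granulosa, 5 macrophage, 2 surface epithelium and 1 adipocyte markers, with Fst at -1.03 (adjusted p = 0.0254, limma) and Lyz2 at 1.21 (adjusted p = 0.0308, limma). Ddx4 at 0.93 and Lhx9 at 0.43 were also called. The part of these other cells in the values of the 6 genes was not tested.

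The genes whose pattern over the 9 arrays was most like each of the 6 were read from probe sets with 1 symbol and a mean above that of the median probe set. Pearson's r on log2 values was the measure, with Spearman's rho beside it, and both are descriptions of values picked as the highest of many. Nobox was closest to Olfr976, an olfactory receptor gene (r = 0.986, rho = 0.950), Nlrp5, a maternal-effect gene of the oocyte (r = 0.969, rho = 0.979) and Tubb2b, a tubulin gene (r = 0.969, rho = 0.983). Olfr976 read 453.8, 354.6 and 527.1 in the arrays labelled knockout, 378.0, 398.9 and 342.4 in heterozygotes, and 595.8, 523.6 and 407.0 in wild type. It thus ranked the ovaries nearly as Nobox did, with wild type 1 highest.

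Lhx8 was closest to Khdc1a (r = 0.981, rho = 0.950), to Eif4e1b, an oocyte cap-binding protein gene (r = 0.971, rho = 0.967), and to Sp110 (r = 0.969, rho = 0.950). Nlrp5, the neighbour of Nobox in this ranking, is itself among the 20 oocyte markers. Pou5f1 was closest to Zfp296, a zinc finger gene (r = 0.996, rho = 0.913), Tnfaip8 (r = 0.992, rho = 0.983) and Rbm38, an RNA-binding protein gene (r = 0.990, rho = 0.983). Zfp296 read 209.7, 161.1 and 209.7 in the arrays labelled knockout, 209.7, 209.7 and 197.9 in heterozygotes, and 254.4, 240.4 and 209.7 in wild type. The value 209.7 recurs in several arrays, and knockout 2 was the lowest array for it as for Pou5f1.

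Sohlh2 was closest to Arhgef16 (r = 0.956, rho = 0.983), Hsf2bp, a meiotic recombination gene (r = 0.943, rho = 0.967), and Nptx2 (r = 0.938, rho = 0.917). Figla was closest to Hey1, a Notch target gene (r = 0.935, rho = 0.887), Ctdspl (r = 0.922, rho = 0.921) and Lin28a, an RNA-binding protein gene of germ and stem cells (r = 0.916, rho = 0.736). Sohlh1 was closest to Borcs5 (r = 0.922, rho = 0.700), Cdk20 (r = 0.916, rho = 0.800) and Stau2 (r = 0.899, rho = 0.820), and 0 of these 3 belong to the lists of oocyte genes used here. Lin28a, Cdk20 and Borcs5 carry the older symbols Lin28, Ccrk and Loh12cr1 in the deposited annotation, and Tubb2b, Khdc1a and Eif4e1b have 2 probe sets each, of which the closest is given.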

How the data were processed

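Ovarian total RNA of 9 mice aged 3 weeks (300 ng each) was hybridised to GeneChip Mouse Gene 1.0 ST arrays, 1 per mouse. The authors normalized by RMA-Sketch (Expression Console 1.1), per the labels' design text. Judged by its range the deposited intensity is on a linear scale, so its log2 was taken here. The authors also deposited tables with a ratio (fold) of group means and a p-value per probe set, whose test is not named in the sources used here. Value columns left unmapped numbered 0.

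Samples were grouped by the genotype in their titles. Log2 values were fitted with limma 3.58.1 in R 4.3.3, with 1 mean per genotype over all 9 arrays, eBayes, and adjustment by Benjamini-Hochberg across all 25100 probe sets carrying a symbol (151 of them with several), two-sided, at 0.05. Symbols were updated through RefSeq GRCm38.p6: an accession matched for 18712 probe sets, a symbol for 2208 and a synonym for 1751, and 2278 kept the deposited symbol. Exact permutation tests used 3 against 3 arrays. Promoter entries were found for 6 of 6 genes. A gene with several probe sets is given by the one with the highest mean, except that the genes closest to each of the 6 are given by their closest probe set. The fit was tested on simulated data. The number of arrays limits the precision.

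The 6 genes, the lists, the motifs, the tests and the alternatives were chosen with earlier results of these data known. CACGTG and CAGGTG were counted after the sequences were seen. The text names the 6 genes, Taf4b, the 3 closest genes of each, and from each list up to 4 with the smallest p against wild type, not all of which are printed for the cell type lists. Some other members of the lists are named beside these. Alternatives were the arrays fitted, quantile normalization, median centring, the filter on dim probe sets, probe sets without a symbol, the replicate number as a block, array weights, a linear-scale equal-variance test, each array left out in turn, and subtraction of the oocyte markers. Leaving out knockout 2 and heterozygote 1 together, and the lists and the subtraction without knockout 2, were added after seeing the data.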

Additional observations from a re-analysis of the deposited data

How the results depend on the processing

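Under 19 alternatives, 0 of the 6 genes was called in any comparison, and the lowest adjusted p was 0.214 (Pou5f1, knockout against wild type, array weights, limma). With the oocyte markers subtracted and knockout 2 left out together, Sohlh1 was called in knockout against heterozygote (-0.40, adjusted p = 0.0359, limma), where 13329 probe sets were called and the median of all was -0.37. For knockout against wild type 109 of 114 values kept their direction and 5 turned, for heterozygote against wild type 107 and 7, and for knockout against heterozygote 103 and 11; the cause was not tested. Leaving out each array in turn, the knockout difference from wild type ranged from -0.35 to 0.015 for Figla and from -0.23 to 0.10 for Lhx8, both positive only without knockout 2. The heterozygote difference from wild type ranged from -0.16 to 0.058 for Figla and from -0.31 to 0.025 for Sohlh1, positive without wild type 1 for both and without heterozygote 2 for Figla (0.019). For knockout against heterozygote it ranged from -0.31 to 0.055 for Figla, -0.20 to 0.046 for Sohlh1, -0.11 to 0.10 for Sohlh2 and -0.33 to 0.10 for Pou5f1. In knockout against heterozygote the median of the 6 genes turned to 0.10 without knockout 2. It was -0.17 without knockout 2 and -0.13 without wild type 1 in knockout against wild type, and -0.14 without wild type 1 in heterozygote against wild type. Subtracting the oocyte markers gave 0.053 for Lhx8 in knockout against wild type. For heterozygote against wild type it gave 0.28 for Figla, 0.17 for Sohlh1, 0.038 for Sohlh2, 0.084 for Lhx8 and a median of 0.061, and for knockout against heterozygote -0.031 for Lhx8. Array weights gave 0.014 for Figla in knockout against heterozygote. Without knockout 2 and heterozygote 1 together, Figla was at 0.015 and Lhx8 at 0.10 in knockout against wild type, and Figla was at 0.14, Sohlh1 at 0.079, Sohlh2 at 0.039 and Pou5f1 at 0.10 in knockout against heterozygote.

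Calls over all probe sets, 19 for knockout against wild type and 6 for knockout against heterozygote, were 0 and 0 with only the compared arrays, 48 and 30 without the dimmest 25%, 199 and 152 with array weights, 3 and 1 by the linear-scale test, and 30 and 409 without knockout 2 and heterozygote 1. Quantile normalization gave 11 and median centring 12 for knockout against heterozygote. Leaving out 1 array gave 2 to 20 and 0 to 261, the last without knockout 2. The replicate block gave 3 and 0, and 0 for heterozygote against wild type, as did each other alternative there. Same-numbered arrays do not deviate together throughout (correlations of -0.193 to 0.334), so the numbers are not taken as pairs. Each of the 6 genes has 1 probe set, so averaging probe sets was not run. Depth in reads does not apply, and signals of Figla, Sohlh1 and Sohlh2 lay below the median probe set, which limits the changes that can be seen.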
